A study of Homo sapiens with 4 samples.

Results

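The UGT2B enzymes of prostate cancer cells were examined through the mRNA of 7 genes, UGT2B4, UGT2B7, UGT2B10, UGT2B11, UGT2B15, UGT2B17 and UGT2B28, which were chosen by name from the 22637 genes of an RNA-seq count table. The family was singled out with its values in these 4 libraries already known, so the levels below are a description and carry no test. The table held 1 library for each of 4 human prostate cancer cell lines. LNCaP is an androgen-sensitive line from which the castration-resistant line C4-2B was derived. LN-OlapR and 2B-OlapR are olaparib-resistant sublines of LNCaP and C4-2B, respectively, raised by long exposure to rising concentrations of olaparib, an inhibitor of the DNA repair enzyme PARP. All 4 were labelled untreated, and the series description states that they were plated for 48 hours without the selecting drug before RNA was taken, whereas the study's methods give a longer time. C4-2B and both resistant lines descend from LNCaP, so no line is independent of the others, and with 1 library per line the differences between cultures could not be measured.

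Uridine diphosphate glucuronosyltransferases (UGTs) sit in the membrane of the endoplasmic reticulum and join glucuronic acid, taken from UDP-glucuronate, to small lipophilic molecules, which can then be excreted. Members of the 2B subfamily conjugate steroids, and UGT2B15 and UGT2B17 are the enzymes best known for conjugating dihydrotestosterone and its metabolites in the prostate. In LNCaP cells, androgens are known to lower the mRNA of UGT2B15 and UGT2B17, and the same genes are highly expressed in liver.

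The 7 genes lie in one cluster on chromosome 4, from 68537184 to 69526014 in the GENCODE release 29 annotation of GRCh38, a span of 988.8 kb. UGT2B17 (68537184 to 68568527), UGT2B15 (68646630 to 68670628), UGT2B11 (69199951 to 69214731) and UGT2B4 (69480165 to 69526014) are on the minus strand. UGT2B10 (68815993 to 68831196), UGT2B7 (69051363 to 69112987) and UGT2B28 (69280499 to 69295050) are on the plus strand. The coding sequences are much alike. UGT2B11 and UGT2B28 were 97.0% identical, UGT2B15 and UGT2B17 were 96.5% identical, and the least alike members, UGT2B15 and UGT2B28, were still 84.1% identical.

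How alike they are is shown by 60 coding bases of the first of 6 exons, the gapless stretch in which UGT2B15 and UGT2B17 differ most. Each sequence is the sense strand, 5′ to 3′, from the GENCODE release 29 transcripts, and capitals mark bases that differ from UGT2B15.
UGT2B15: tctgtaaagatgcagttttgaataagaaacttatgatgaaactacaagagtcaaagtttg
UGT2B17: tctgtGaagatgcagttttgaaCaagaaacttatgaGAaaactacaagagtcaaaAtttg
UGT2B11: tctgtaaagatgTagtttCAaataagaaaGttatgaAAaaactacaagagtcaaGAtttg
UGT2B28: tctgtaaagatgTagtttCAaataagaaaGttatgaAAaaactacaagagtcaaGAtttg
UGT2B10: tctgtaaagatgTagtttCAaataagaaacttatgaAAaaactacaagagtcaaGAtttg
UGT2B7: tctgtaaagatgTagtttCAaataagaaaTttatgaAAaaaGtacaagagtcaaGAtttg
UGT2B4: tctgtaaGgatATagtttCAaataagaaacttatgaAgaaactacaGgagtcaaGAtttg
UGT2B17 differed from UGT2B15 at 5 of the 60 bases, UGT2B10 at 7, UGT2B11 and UGT2B28 at 8, and UGT2B4 and UGT2B7 at 9. UGT2B11 and UGT2B28 were identical to each other in this stretch. It spans coding positions 380 to 439 of UGT2B15, which is 68670180 to 68670239 on chromosome 4.

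This likeness bears on the values, because a read from a shared stretch cannot be placed in 1 gene. Every 50-base word of the longest coding transcript of each member was looked up in the transcripts of all other genes. The share of words also held by another gene was 40.9% for UGT2B11, 35.7% for UGT2B28, 31.7% for UGT2B10, 27.8% for both UGT2B15 and UGT2B17, 6.75% for UGT2B7 and 3.16% for UGT2B4. UGT2B15 and UGT2B17 shared nearly all of theirs with each other, and UGT2B28 shared 20.7% of its words with UGT2B11. The longest run of coding bases common to UGT2B15 and UGT2B17 was 199 bases. UGT2B15 and UGT2B17 each held values that were not whole, yet their sum was whole to within 0.01 in all 4 libraries, at 3294 in LNCaP, 450 in C4-2B, 27 in LN-OlapR and 78 in 2B-OlapR. The sum of both genes is therefore given beside each gene alone.

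**Figure D1:**
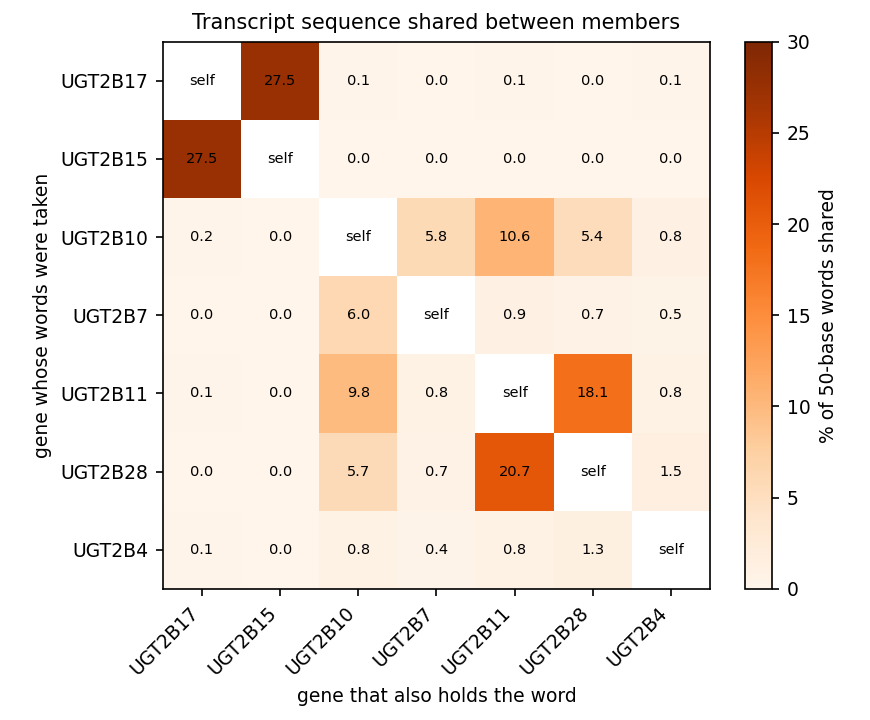
Share of 50-base words of each member's transcript (rows) that also occur in another member's transcripts (columns), in percent of the row gene's words. The darkest cells are UGT2B15 with UGT2B17 at 27.5% in both directions, followed by UGT2B28 and UGT2B11 at 20.7% and 18.1%.

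Levels are given as normalized CPM (counts scaled by library size with TMM factors), with a 95% exact (Clopper-Pearson) interval that covers counting error only. Summed over the 7 members, the family stood at 194 CPM (188 to 199) in LNCaP, 56.7 CPM (53.5 to 60.0) in C4-2B, 6.37 CPM (5.33 to 7.55) in 2B-OlapR and 2.44 CPM (1.85 to 3.17) in LN-OlapR. The counts behind these sums were 5203, 1160, 132 and 57, out of library totals between 19950537 and 26394267 counts. Both resistant lines were thus below both parental lines, and no interval overlapped another. The parental lines were themselves 3.41-fold apart. In bulk RNA, fewer cells expressing a gene and less mRNA per cell cannot be told apart.

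UGT2B15 and UGT2B17 are the members with the best known activity on androgens. UGT2B15 measured 74.7 CPM in LNCaP and 0.815 CPM in its resistant subline LN-OlapR, and 16.3 CPM in C4-2B and 2.90 CPM in its resistant subline 2B-OlapR. In the same order, UGT2B17 measured 47.9 and 0.343 CPM, and 5.67 and 0.869 CPM. Summed, both genes stood at 123 and 1.16 CPM, and at 22.0 and 3.76 CPM. Both were highest in LNCaP and lowest in LN-OlapR, where UGT2B15 rested on 19 counts and UGT2B17 on 8. Of the counts of both genes together, UGT2B15 held 60.9% (59.2 to 62.6) in LNCaP and 74.2% (69.9 to 78.2) in C4-2B. In the resistant lines its share was 70.4% (49.8 to 86.2) in LN-OlapR and 76.9% (66.0 to 85.7) in 2B-OlapR, and both intervals overlapped that of C4-2B, while only the wide interval of LN-OlapR reached that of LNCaP. As reads of these genes were shared, the intervals of the shares leave out the error of the assignment.

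UGT2B28, which also accepts androgens, measured 11.7 CPM in LNCaP against 0.600 CPM in LN-OlapR, and 13.1 CPM in C4-2B against 1.11 CPM in 2B-OlapR. UGT2B11, its closest relative in sequence, measured 45.6 CPM against 0.643 CPM, and 20.2 CPM against 1.35 CPM. Taken alone, UGT2B28 was the member whose level in C4-2B was not below that in LNCaP. UGT2B11 and UGT2B28 summed were lower in C4-2B, at 33.3 CPM against 57.4 CPM. That sum includes the lower level of UGT2B11, so it cannot show whether the level of UGT2B28 depends on how shared reads were divided. Unlike the sum of UGT2B15 and UGT2B17, it was not whole in C4-2B, at 681.7 counts, so reads may also be shared with other genes. UGT2B28 made up 20.4% (18.4 to 22.5) of the counts of UGT2B11 and UGT2B28 in LNCaP and 39.3% (35.6 to 43.1) in C4-2B.

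The remaining members act mainly on other substrates in liver. UGT2B10, which conjugates amines at nitrogen, measured 10.9 CPM in LNCaP, 1.22 CPM in C4-2B and 0.145 CPM in 2B-OlapR. It had 0 counts in LN-OlapR, where 3 counts would be 0.129 CPM. UGT2B4, an enzyme of bile acid conjugation, had 60 counts in LNCaP (2.23 CPM), 1 count in its subline LN-OlapR, and 0 in both C4-2B and 2B-OlapR. UGT2B7, which conjugates morphine among many drugs and steroids, was at the edge of detection with 13 counts in LNCaP (0.484 CPM), 3 in C4-2B and 0 in both resistant lines. LNCaP was therefore the only library in which all 7 members had more than 3 counts.

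**Figure D2:**
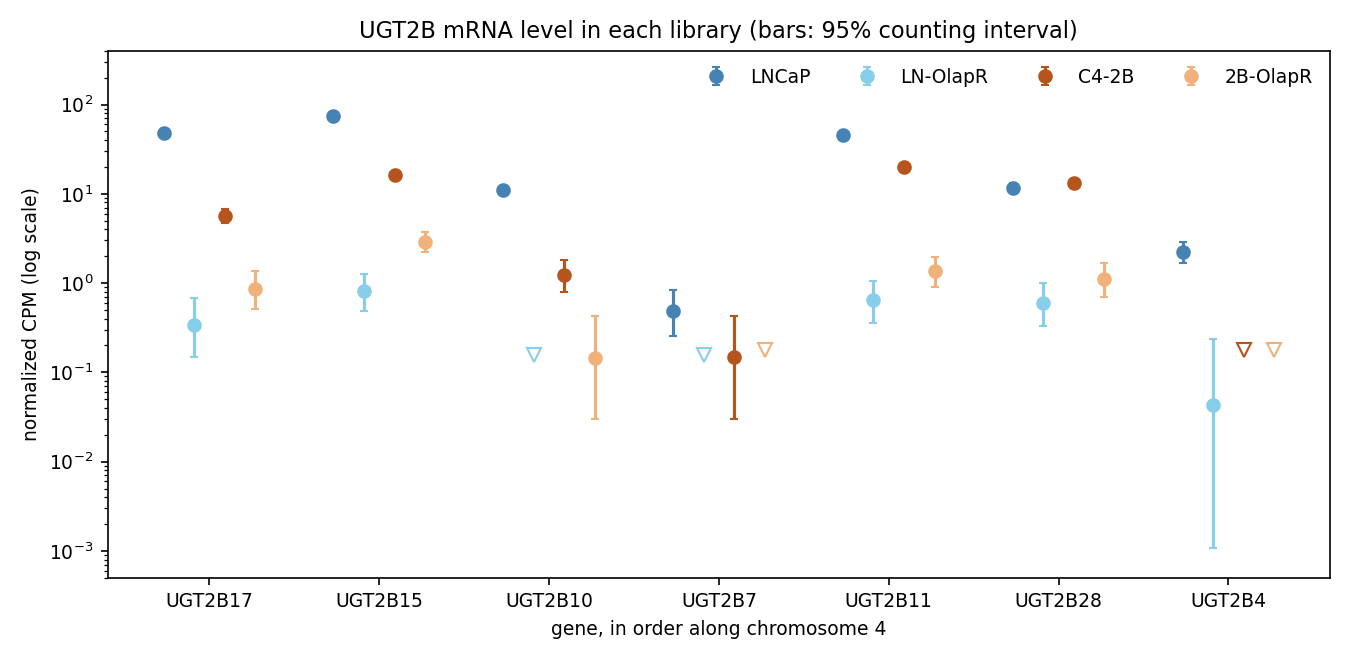
Level of each member in each library in normalized CPM on a log axis, with 95% counting intervals as bars. Open triangles stand at the upper limit of the interval where a library had 0 counts. In each gene the LN-OlapR mark lies below LNCaP, least so in UGT2B7, where it is an upper limit, and for the 4 members with the most counts, the 2B-OlapR mark lies below C4-2B.

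To compare members with each other, levels were divided by the length of the longest coding transcript. In LNCaP, UGT2B15 led with 35.9 CPM per kb (34.4 to 37.6), followed by UGT2B17 at 23.0 (21.8 to 24.3) and UGT2B11 at 21.9 (20.7 to 23.1), whose intervals overlapped. UGT2B28 at 6.39 CPM per kb and UGT2B10 at 5.66 CPM per kb also overlapped, and UGT2B4 (1.06) and UGT2B7 (0.256) came last. In C4-2B the order was different. UGT2B11 led with 9.69 CPM per kb (8.78 to 10.7), just above UGT2B15 at 7.86 (7.04 to 8.75), which overlapped UGT2B28 at 7.15 (6.32 to 8.05), and UGT2B17 was lower at 2.73 (2.26 to 3.27). In LN-OlapR, the 4 most abundant members lay between 0.165 and 0.392 CPM per kb with overlapping intervals, so that no order could be read. In 2B-OlapR, UGT2B15 at 1.39 CPM per kb (1.06 to 1.79) stood above UGT2B11 at 0.647, UGT2B28 at 0.606 and UGT2B17 at 0.418, which overlapped. Each of these orders also depends on how shared reads were divided, which the intervals leave out.

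The first question was how the UGT2B genes differed between LN-OlapR and LNCaP. A gene was compared where its mean over both libraries was at least 1 CPM, and a difference of at least 2-fold was counted. Log2 ratios carry a pseudocount of 0.5 counts and folds do not. All 6 members that passed the minimum were at least 2-fold lower in LN-OlapR, where 4.83% of 15373 genes were lower by as much and 4.64% were higher. Their median log2 ratio was -6.29, or -6.26 with UGT2B10 at its bound, against 0.00 over all genes compared. Each member was under 1 CPM in LN-OlapR and passed through its level in LNCaP. For all of the 6 but UGT2B15, passing by that route already required a 2-fold difference, so the count and the median describe the selection and support nothing further.

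The family total was 79.2-fold lower (61.0 to 105) in LN-OlapR, a log2 ratio of -6.30 (-6.71 to -5.93). UGT2B17 was 140-fold lower, with a log2 ratio of -7.04 (-8.34 to -6.14). UGT2B15 was 91.7-fold lower, with a log2 ratio of -6.48 (-7.25 to -5.87). These intervals overlap, and the sum of both genes, which does not depend on how their reads were divided, was 106-fold lower. UGT2B11 was 71.0-fold lower, at -6.10 (-6.99 to -5.42), and UGT2B28 was 19.5-fold lower, at -4.24 (-5.17 to -3.52). The interval of UGT2B28 did not reach that of UGT2B11, UGT2B15 or UGT2B17, so UGT2B28 had the smaller difference as far as counting error goes. UGT2B11 and UGT2B28 summed were 46.1-fold lower, at -5.50 (-6.11 to -5.00). That sum lies between the ratios of both genes however their reads were divided. It therefore cannot show whether the smaller difference of UGT2B28 comes from the division of shared reads, which the intervals leave out. UGT2B10 was at least 85.0-fold lower, taking 3 counts for its 0. UGT2B4 went from 60 counts to 1, a ratio of 52.1 with an interval of 8.99 to 2090. UGT2B7 did not pass the minimum and was at least 3.76-fold lower. Ranked from the lowest log2 ratio, UGT2B10 was gene 4 of 15373, UGT2B17 was 20, UGT2B15 was 28, UGT2B11 was 33, UGT2B4 was 49 and UGT2B28 was 72. The places of UGT2B10 and UGT2B4, with 0 and 1 counts in LN-OlapR, rest on the pseudocount.

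The second comparison, 2B-OlapR against C4-2B, uses neither library of the first. Only 4 members passed the minimum, UGT2B11, UGT2B15, UGT2B17 and UGT2B28, and all 4 were at least 2-fold lower in 2B-OlapR. Of the 15527 genes compared, 5.65% were lower by at least 2-fold and 4.42% were higher. The median log2 ratio of the 4 members was -3.10, against 0.00 over all genes. UGT2B17, at 0.869 CPM in 2B-OlapR, passed only through its level in C4-2B. As the family was chosen with these values known, the count and the median are a description and support nothing further.

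The family total was 8.90-fold lower (7.43 to 10.7) in 2B-OlapR, a log2 ratio of -3.15 (-3.42 to -2.89). UGT2B11 was 15.0-fold lower, at -3.88 (-4.51 to -3.35), and UGT2B28 was 11.8-fold lower, at -3.53 (-4.24 to -2.94). UGT2B17 was 6.53-fold lower, at -2.67 (-3.51 to -1.98), and UGT2B15 was 5.64-fold lower, at -2.49 (-2.92 to -2.09). Here UGT2B11 and UGT2B28 together were 13.5-fold lower and UGT2B15 and UGT2B17 together 5.84-fold lower, whereas in LN-OlapR it was the second pair that differed more, 106-fold against 46.1-fold. UGT2B10 was below the minimum and went from 25 counts to 3, a ratio of 8.44 with a log2 interval of -5.45 to -1.36. For UGT2B4 and UGT2B7 no fold is given, because both libraries had 3 counts or fewer. In the ranking from the lowest log2 ratio, UGT2B11 was gene 44 of 15527, UGT2B28 was 59, UGT2B17 was 113 and UGT2B15 was 131.

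The third comparison set the castration-resistant line C4-2B against LNCaP, and shares a library with each of the first 2. The family total was 3.41-fold lower in C4-2B, a log2 ratio of -1.77 (-1.86 to -1.68). Of 6 members that passed the minimum, 5 were at least 2-fold lower, where 7.18% of 15580 genes were lower by as much and 8.00% were higher, and the members' median was -2.63 against -0.02. UGT2B10 was 8.95-fold lower, UGT2B17 was 8.45-fold lower, UGT2B15 was 4.57-fold lower and UGT2B11 was 2.26-fold lower. UGT2B15 and UGT2B17 summed were 5.57-fold lower. UGT2B4 was at least 15.2-fold lower, and as it had 0 counts in C4-2B its passing the minimum fixed that call. UGT2B28 had a log2 ratio of 0.16 with an interval of -0.08 to 0.40 that includes 0. UGT2B11 and UGT2B28 summed had a log2 ratio of -0.78, 1.72-fold lower. As this sum lies between the ratios of both genes, it cannot show whether the 2-fold call of UGT2B11 or the direction of UGT2B28 holds. The intervals of both genes leave out the division of shared reads. UGT2B7, below the minimum, had a log2 ratio of -1.55 (-4.17 to 0.14).

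Between the resistant lines, whose libraries also serve in the first 2 comparisons, 2B-OlapR held 2.61-fold more of the family than LN-OlapR, a log2 ratio of 1.38 (0.92 to 1.86). UGT2B15 was the only member over the minimum and was 3.55-fold higher in 2B-OlapR, at 1.80 (1.07 to 2.66), where 8.93% of 15539 genes were at least 2-fold higher and 9.45% were lower. Below the minimum, UGT2B17 had a log2 ratio of 1.29 (0.07 to 2.75, and 3.25-fold higher when summed with UGT2B15), UGT2B11 had 1.05 (0.12 to 2.08) and UGT2B28 had 0.87 (-0.13 to 1.96).

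**Figure D3:**
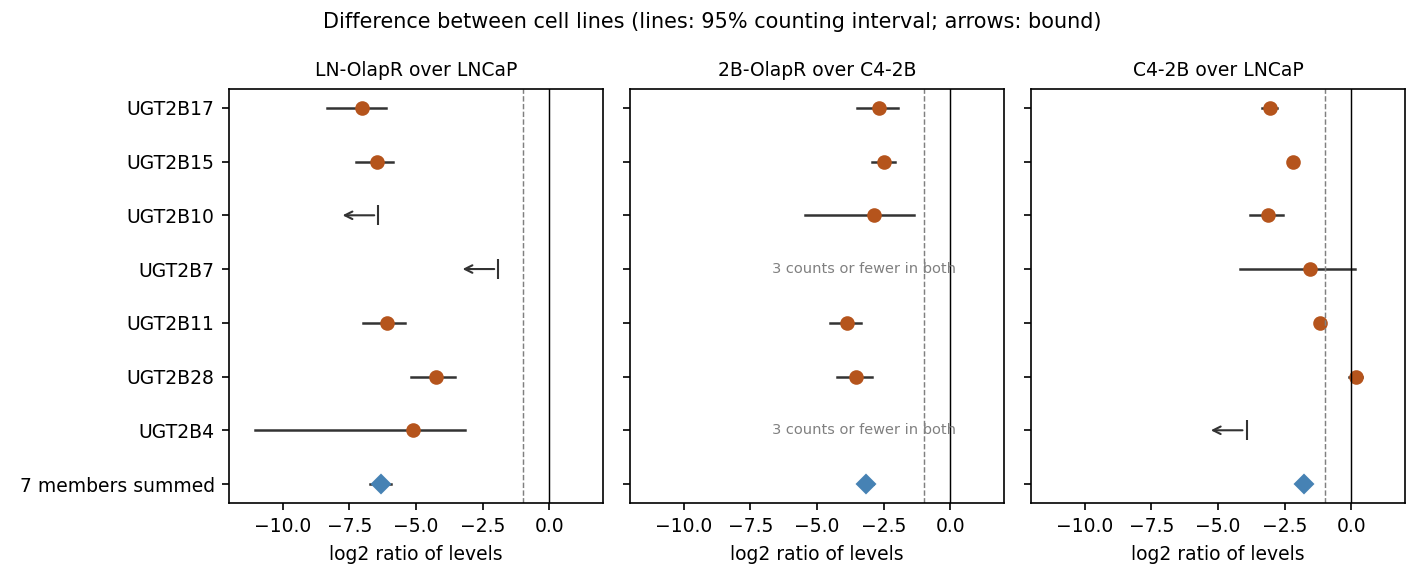
Log2 ratio of the level of each member, and of the 7 members summed (diamonds), in 3 comparisons, with 95% counting intervals as lines and a dashed line at 2-fold lower. Arrows start at the bound for a gene with 0 counts in the first-named line. UGT2B4 and UGT2B7 have no mark in 2B-OlapR over C4-2B, where both libraries had 3 counts or fewer. The marks and bounds drawn for both resistant lines sit left of the dashed line, and UGT2B28 sits at 0.16 in C4-2B against LNCaP.

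The stretch of chromosome 4 around the genes was read next. Of the rows of the table, 23 lay within 1 Mb of the cluster, 10 of them inside it. Besides the members, the inside rows were the pseudogenes UGT2B24P, UGT2B25P and UGT2B27P, which had 15, 21 and 6 counts in LNCaP and 1, 0 and 0 counts in LN-OlapR. In C4-2B they had 8, 5 and 7 counts, and 1 count each in 2B-OlapR. Pseudogenes can take up reads of the intact genes, so these counts are uncertain.

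Next to UGT2B17 lies TMPRSS11E, which encodes a serine protease of the cell surface. It measured 3.46 CPM in LNCaP against 0.214 CPM in LN-OlapR, and 2.93 CPM in C4-2B against 0.579 CPM in 2B-OlapR. It was thus also lower in both resistant lines, with log2 ratios of -3.88 and -2.29, although it is no UGT. Farther out, YTHDC1, a reader of methylated adenosine in RNA, measured 85.4 and 69.8 CPM in LNCaP and LN-OlapR and 51.9 and 52.3 CPM in C4-2B and 2B-OlapR. UBA6, a ubiquitin-activating enzyme, measured 48.3 and 48.9 CPM in the first pair and 30.4 and 30.6 CPM in the second. Neither YTHDC1 nor UBA6 came near a 2-fold difference between a resistant line and its parent. ODAM was the nearest measured gene beyond the other end of the cluster. It had 11 counts in LNCaP against 15 in LN-OlapR and 34 in C4-2B against 27 in 2B-OlapR, within 2-fold in both pairs. AMTN, an enamel protein gene beyond ODAM and below the minimum, was lower in both resistant lines. It had 22 counts in LNCaP against 4 in LN-OlapR and 28 in C4-2B against 7 in 2B-OlapR.

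**Figure D4:**
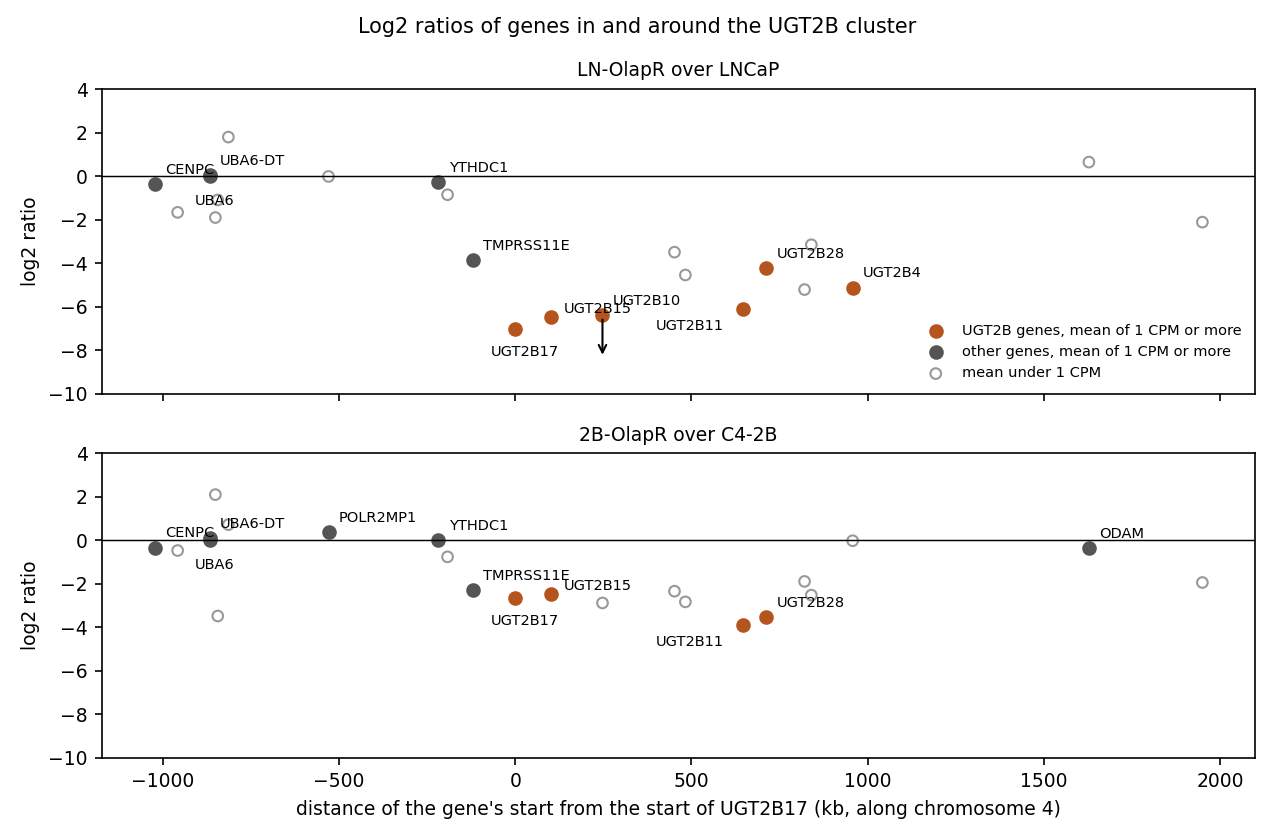
Log2 ratio of each table row within 1 Mb of the UGT2B cluster against the distance of its start from that of UGT2B17 in kb, for both resistant lines. Filled marks have a mean of at least 1 CPM, and the arrow marks the bound for UGT2B10. The UGT2B genes and TMPRSS11E lie below the other filled genes, which stay near 0.

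The 250 bases before the start of each member were read for those with an entry in the RefSeq promoter table (GRCh38.p14), which were UGT2B15, UGT2B11, UGT2B10 and UGT2B7. RefSeq starts can differ from the GENCODE gene span, and for UGT2B7 the RefSeq start lies inside that span, so the stretch shown for it is upstream of another transcript start. They are printed on the gene's own strand, 5′ to 3′, with capitals for matches of 3 motifs searched on both strands.
UGT2B15 (chr4:68670653-68670902, minus strand): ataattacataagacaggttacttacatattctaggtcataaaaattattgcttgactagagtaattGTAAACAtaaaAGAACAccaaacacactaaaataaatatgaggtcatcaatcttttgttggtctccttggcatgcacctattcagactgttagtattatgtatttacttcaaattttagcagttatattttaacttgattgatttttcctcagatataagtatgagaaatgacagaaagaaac
UGT2B11 (chr4:69214749-69214998, minus strand): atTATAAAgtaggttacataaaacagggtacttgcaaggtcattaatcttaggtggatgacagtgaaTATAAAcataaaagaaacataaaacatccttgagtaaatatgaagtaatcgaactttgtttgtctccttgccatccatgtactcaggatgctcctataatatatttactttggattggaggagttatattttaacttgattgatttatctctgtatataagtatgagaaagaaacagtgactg
UGT2B10 (chr4:68815744-68815993, plus strand): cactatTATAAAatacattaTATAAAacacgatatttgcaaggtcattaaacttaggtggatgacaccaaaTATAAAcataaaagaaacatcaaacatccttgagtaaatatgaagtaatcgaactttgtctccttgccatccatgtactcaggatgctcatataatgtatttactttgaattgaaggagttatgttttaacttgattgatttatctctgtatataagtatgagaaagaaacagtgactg
UGT2B7 (chr4:69096224-69096473, plus strand): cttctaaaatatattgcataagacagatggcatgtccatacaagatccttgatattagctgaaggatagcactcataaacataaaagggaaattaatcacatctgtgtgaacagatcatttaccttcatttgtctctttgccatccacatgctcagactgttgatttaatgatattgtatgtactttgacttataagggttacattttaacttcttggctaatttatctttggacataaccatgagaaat
The first motif, TATAAA, has the letters of a well known core promoter element. Forkhead factors such as FOXA1 bind TGTTTAC, and steroid receptors bind sites that contain AGAACA. The first of these motifs occurred 3 times in UGT2B10, 244, 230 and 179 bases before the start, and 2 times in UGT2B11, 248 and 183 bases before, and 10.7% of 35116 RefSeq promoters cut to the same 250 bases hold it. TGTTTAC occurred in UGT2B15 on the opposite strand, 183 bases before the start, and in 2.98% of all promoters. AGAACA occurred in UGT2B15, 172 bases before the start, and in 12.4% of all promoters. No match overlapped another. Only exact matches were searched, and a match of letters does not show that a site is in use.

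The UGT2B10 and UGT2B11 promoters were 90.2% identical, UGT2B11 and UGT2B15 were 70.9% identical, and UGT2B7 and UGT2B15 were least alike at 57.9%. A run of 18 bases, TTTTAACTTGATTGATTT, was common to UGT2B10, UGT2B11 and UGT2B15, beginning 55, 55 and 56 bases before their starts, and occurred in 3 of 35116 promoters. All 4 held TAAACATAAAAG, which occurred in 6 of all promoters. Both runs were picked from these members' promoters, which are among those counted, so the counts are no separate measure of rarity. A shared run describes related sequence and is not evidence of a binding site.

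Transcription factors linked to UGT2B genes were then read beside the family. AHR, the receptor for dioxin-like compounds, measured 0.260 CPM in LNCaP against 2.62 CPM in LN-OlapR, and 1.03 CPM in C4-2B against 8.45 CPM in 2B-OlapR, with log2 ratios of 3.24 (2.20 to 4.70) and 3.01 in the resistant lines. AHR was thus higher in each resistant line than in its parent. CDX2, an intestinal homeodomain factor, was also at least 2-fold higher in 2B-OlapR, with 39 counts against 15 in C4-2B, and had 1 count in LNCaP and 0 in LN-OlapR. Of 10 factors compared in that pair, 2 were higher and 0 lower, beside 4.42% of all genes higher and 5.65% lower. Of 9 compared between LN-OlapR and LNCaP, 1 was higher and 1 lower, beside 4.64% of all genes higher and 4.83% lower. The forkhead factor FOXA1 measured 371, 349, 420 and 323 CPM in LNCaP, LN-OlapR, C4-2B and 2B-OlapR, within 2-fold in every comparison. The part of these factors in the UGT2B levels was not tested.

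Genes that androgens induce were read beside the family, since androgens lower UGT2B15 and UGT2B17 in LNCaP cells. KLK3, which encodes prostate-specific antigen, measured 53.1 CPM in LNCaP, and 2685, 2412 and 1870 CPM in LN-OlapR, C4-2B and 2B-OlapR. The LNCaP library, highest in UGT2B mRNA, was thus the lowest in KLK3. Of 16 androgen-induced genes compared between LN-OlapR and LNCaP, 8 were at least 2-fold higher, among them KLK2 and FKBP5, and HPGD was lower, with a median of 0.92, beside 4.64% of all genes higher and 4.83% lower. Between 2B-OlapR and C4-2B, 15 were compared. KLK4, TMPRSS2 and TRPM8 were higher, SLC45A3 was lower, and the median was -0.21, beside 4.42% of all genes higher and 5.65% lower. The family was lower in both resistant lines, and the median of the androgen-induced list was 0.92 in LN-OlapR and -0.21 in 2B-OlapR. Whether androgen signalling had a part in the difference was not tested.

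**Figure D5:**
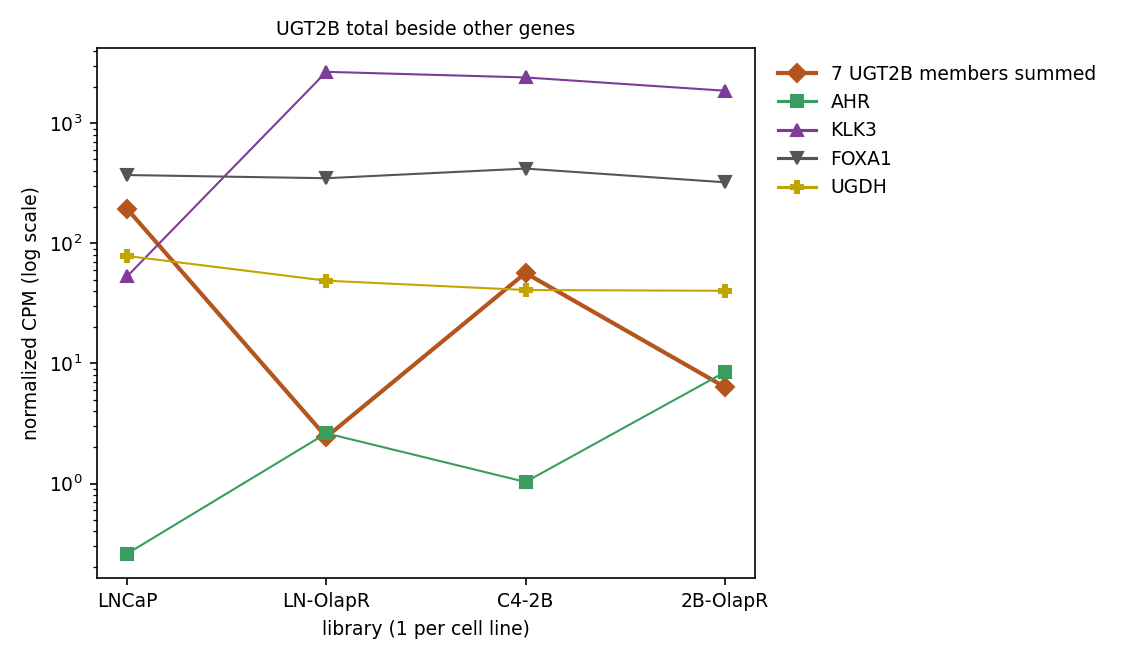
Level of the 7 members summed in each library, beside AHR, KLK3, FOXA1 and UGDH, in normalized CPM on a log axis. The UGT2B line falls in LN-OlapR and again in 2B-OlapR, AHR runs the opposite way within each pair and KLK3 is low in LNCaP alone.

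Genes of the other steps of glucuronidation were read for comparison. Of 14 listed genes that supply UDP-glucuronate or handle glucuronides, 13 were measured. None of 10 compared differed by 2-fold between LN-OlapR and LNCaP, where 4.83% of all genes were lower and 4.64% higher, and the median was 0.02. UGDH, which makes UDP-glucuronate, measured 78.6, 48.9, 40.9 and 40.3 CPM in LNCaP, LN-OlapR, C4-2B and 2B-OlapR, and ABCC1, an exporter of conjugates, had a log2 ratio of 0.91 in LN-OlapR. In 2B-OlapR, 1 of 11 differed, near the background of 5.65% lower and 4.42% higher. It was SLC35D1, a carrier of UDP-glucuronate into the endoplasmic reticulum, which rested on 18 and 37 counts, and the median was -0.02.

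Other conjugating enzymes were few. UGT8, which makes galactosylceramide and is the only measured relative of 6 listed outside the 2B and 1A groups, measured 14.9 CPM in LNCaP against 4.29 CPM in LN-OlapR, and 22.1 CPM in C4-2B against 21.5 CPM in 2B-OlapR, so it was lower in LN-OlapR but nearly equal in the second pair. Of 9 listed UGT1A enzymes, 3 were measured, UGT1A1, UGT1A3 and UGT1A6. They share most of their transcript, and summed to between 3 and 15 counts per library. In steroid sulfation, an alternative route of inactivation, PAPSS1, which makes the sulfate donor, was lower in LN-OlapR at 33.2 CPM against 69.5 CPM, and the sulfotransferase SULT2B1 was higher in 2B-OlapR at 28.1 CPM against 9.63 CPM. These were the only ones past 2-fold of 4 sulfation genes compared in each pair. Of all genes, 4.83% were lower and 4.64% higher in LN-OlapR, and 5.65% lower and 4.42% higher in 2B-OlapR.

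Genes that make androgens or oxidize them were also listed. CYP11A1, the first enzyme of steroid synthesis, measured 0.521, 1.80, 2.49 and 0.193 CPM in LNCaP, LN-OlapR, C4-2B and 2B-OlapR, so it was higher in LN-OlapR and lower in 2B-OlapR. It was the only gene of 5 compared in each pair to pass 2-fold. Of all genes, 4.83% were lower and 4.64% higher in the first pair, and 5.65% lower and 4.42% higher in the second. Of the genes of androgen oxidation, none of 5 in the first pair and none of 6 in the second passed, which is near those shares. Below the minimum, HSD17B2 was higher in LN-OlapR than in LNCaP, with 25 counts against 3. HSD17B14 (14 against 34 counts) and AKR1C2 (1 against 12) were lower there. HSD17B10, an oxidizing dehydrogenase of the mitochondrion, had a log2 ratio of 0.29 in LN-OlapR.

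Genes with the most similar profile over the 4 libraries were found for the 5 members with a mean of at least 1 CPM, by the Euclidean distance between centred log2 levels among 15645 genes. The nearest gene to UGT2B15 was UGT2B17 (distance 0.75), followed by UGT2B11 (0.92) and UGT2B10 (1.38). UGT2B17 was nearest to UGT2B15, UGT2B10 (1.08) and CDH26 (1.24), a cadherin. UGT2B11 was nearest to UGT2B15, RALYL (1.03) and UGT2B17 (1.35). UGT2B15 and UGT2B17, each the nearest gene to the other, share reads.

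UGT2B10 was nearest to DAPK1 (0.30), a death-associated kinase with 225 counts in LNCaP and 0 in both resistant lines, to MAN1A1 (0.60), a mannosidase of the Golgi, and to CD24 (0.76). UGT2B28 had no other member among its 10 nearest genes. Its nearest were FBLIM1 (0.62), a filamin-binding protein, PTPN21 (0.67), a tyrosine phosphatase, and EPHA3 (0.83), an ephrin receptor. EPHA3 measured 102, 15.0, 97.5 and 21.0 CPM in LNCaP, LN-OlapR, C4-2B and 2B-OlapR, so that, as for UGT2B28, both parents were near each other and both resistant lines were low. With 4 libraries such distances are a description of these libraries only.

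The labelled cell type was checked. The luminal prostate markers HOXB13, KRT8, KRT18, FOLH1, TMPRSS2 and STEAP2 were present in every library. HOXB13 measured 381 to 507 CPM, KRT8 measured 260 to 343 CPM and KRT18 measured 375 to 422 CPM. Of 4 basal markers only KRT14 was measured, at 0.112 to 0.557 CPM, and of 5 neuroendocrine markers only SYP, at 2.44 to 3.13 CPM. As UGT2B genes are highly expressed in liver, hepatocyte markers were read too, of which 5 of 7 were measured. They summed to 10.4 CPM in LNCaP, and to 2.10, 3.32 and 2.36 CPM in LN-OlapR, C4-2B and 2B-OlapR. ALB, which encodes serum albumin, had 99 counts in LNCaP and 1, 0 and 1 in the others, and TTR, which encodes transthyretin, had 155, 29, 11 and 11 counts in the same order. ALB and TTR were highest in LNCaP, as the UGT2B genes were, but TTR had 11 counts in both C4-2B and 2B-OlapR. SERPINA1 was also highest in LNCaP, though on few counts, with 7, 4, 3 and 0. APOA1 and TF were not, with 9, 5, 37 and 25 counts and 9, 10, 17 and 12 counts. Stromal and immune markers, 4 of 6 measured, summed to 11.0 to 23.2 CPM. Within that sum the markers went both ways in LN-OlapR, which exceeded LNCaP 12.6-fold in CD68 and 2.91-fold in PDGFRB. COL1A1 (8.23 against 15.2 CPM) and COL3A1 (2 against 29 counts) were lower there. In 2B-OlapR, COL1A1 was 2.25-fold below C4-2B. CD68 (log2 ratio -0.94), PDGFRB (-0.73) and COL3A1 (1 count against 3) were also lower in that pair. The part of any other cell type in the UGT2B levels was not tested.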

How the data were processed

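Stranded mRNA of 4 cell lines, 1 library each, was sequenced. The authors deposited estimated counts per gene, not scaled between libraries; 46.2% of the values were not whole. STAR, Partek and GRCh38 (hg38) stand in the submitters' processing notes, and the annotation release and how shared reads were divided are not given in the sources used here. Values were rounded to whole numbers and scaled with the TMM factors of edgeR 4.0.16 under R 4.3.3. Ratios and intervals came from Python 3.11.15 with SciPy 1.17.1. A pseudocount of 0.5 counts entered log2 ratios, genes needed a mean of 1 normalized CPM over the 2 libraries, and 3 counts were the limit for a level at 0. Intervals at 95% are Clopper-Pearson for levels and shares and exact conditional binomial for ratios. They cover counting error only. No model was fitted and no p-value computed, since each line had 1 library. Scripts were tested on simulated data. Named genes are the members, genes of hand-written lists past 2-fold or at the ends of a list, the 3 genes most alike each member, and genes near the cluster. The members and lists were chosen with earlier results of these data known. Alternatives were other scalings (total counts, DESeq2 1.42.0, upper quartile), a pseudocount of 2, other minimum levels, unrounded values and other sums of members. RefSeq promoter entries were matched for 4 of 7 members. Some genes of the lists and 1 motif are not reported here.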

Additional observations from a re-analysis of the deposited data

How the results depend on the processing

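The family ratios, and the member ratios with more than 3 counts in at least 1 of the libraries, kept their sign under total counts, DESeq2 size factors, upper quartile factors, a pseudocount of 2 counts and unrounded values. Leaving out the member with the most counts moved the family log2 ratio to -2.85 in 2B-OlapR against C4-2B (without UGT2B11) and to -1.56 in C4-2B against LNCaP (without UGT2B15). The minimum level set the counts of genes past 2-fold. With a minimum of 10 CPM or with none, the 1455 genes of LN-OlapR against LNCaP became 388 or 4506, the 1564 of 2B-OlapR against C4-2B became 419 or 4805, the 2364 of C4-2B against LNCaP became 772 or 5817, and the 2856 of 2B-OlapR against LN-OlapR became 1040 or 6449. Where alike members were summed, 5 member values moved. A summed value lies between those of its members, so the move does not show how reads were divided. UGT2B28 went from -4.24 to -5.50 in LN-OlapR against LNCaP. In C4-2B against LNCaP, UGT2B28 went from 0.16 to -0.78 and UGT2B11 from -1.17 to -0.78, a summed difference under 2-fold. UGT2B17 went from -3.07 to -2.48 there and UGT2B15 from -2.19 to -2.48. No paired analysis was possible because each cell line had 1 library, and for the same reason no replicate could be left out. Depth limited UGT2B4, UGT2B7 and UGT2B10 in the resistant lines, where 3 counts or fewer were read.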
